A study of Mus musculus with 18 samples.

Results

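Mucins are heavily glycosylated proteins, and those of the colon fall into secreted and transmembrane kinds. The transmembrane mucins examined here were Muc1, Muc4, Muc13 and Muc20, taken by gene symbol from a table of RNA-Seq counts in mouse colon crypts. All 4 symbols were present among the 24047 genes of the table. RNA came from crypt epithelial cells of C57BL/6 mice, in 6 groups of 3 libraries that crossed genotype (WT or Ern2-/-) with microbial state. GF mice carried no microbes, CONV mice were raised conventionally under specific-pathogen-free conditions, and GF-Colonized mice began germ free and received cecal homogenate of conventional WT mice 14 days before harvest. Ern2 encodes a sensor of endoplasmic reticulum stress found in mucus-producing epithelia, and the study asked how its loss and the gut microbiota shape the crypt epithelium. Crypts were separated with EDTA and strainers without sorting of cell types, and ages of the mice and any allele beyond Ern2-/- were not given in the labels. The labels do not say that the libraries of a group came from separate litters or days, so p-values measure the spread between these libraries.

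A transmembrane mucin is held in the apical membrane of an epithelial cell by a single membrane-spanning segment. Its glycosylated extracellular domain forms part of the glycocalyx beneath the secreted mucus, and its short cytoplasmic tail can take part in signalling. Muc1 carries a tail that binds kinases and beta-catenin, Muc4 carries EGF-like domains and binds the receptor ErbB2, Muc13 is a major cell-surface mucin of the large intestine, and Muc20 is a member known to bind the receptor Met. Muc2, the gel-forming mucin secreted by goblet cells, served as the reference outside the family.

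In GRCm38, the assembly that mm10 names, with GENCODE vM21 annotation, 3 of the 4 genes were on chromosome 16. Muc1 (ENSMUSG00000042784.9) occupied chr3:89229057-89233381 on the plus strand with 7 exons in its longest coding transcript. Muc4 (ENSMUSG00000079620.13) lay at chr16:32735886-32782391 on the plus strand with 27 exons. Muc20 (ENSMUSG00000035638.14) lay at chr16:32777419-32797435 on the minus strand with 4 exons, and Muc13 (ENSMUSG00000022824.12) lay at chr16:33794037-33819934 on the plus strand with 13 exons. Muc4 and Muc20 face each other, and their 3′ ends overlap over 4973 bases, of which 627 are exonic in both genes. The libraries came from a stranded kit, but the strand setting of the counting was not given in the sources used here. If strand was ignored, reads from the shared end cannot be assigned to one of the pair, and the small Muc20 counts are uncertain for that reason. Muc20 had between 0 and 6.30 counts per 1000 Muc4 counts, and a library with 3941 Muc4 counts (Ern2-/- CONV replicate 1) had 0 Muc20 counts. Muc13 also overlaps an antisense gene, Gm15657, over 2838 bases, which was not analysed here.

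The start-site sequences are shown because Muc4 and Muc20, opposite in orientation with start sites 61549 bases apart, were both higher after colonization of WT mice, while Muc1 and Muc13 were not. Each sequence runs from 250 bases before to 50 bases after a RefSeq start site (GRCm38.p6), 5′ to 3′ on the gene's own strand, and all 4 genes matched by symbol. Capitals mark 5 short motifs searched on both strands. They are the core promoter motif TATAAA, the motif AGATAA of the GATA family, the motif TTTATG of the intestinal CDX factors, the motif TTCNNNGAA of the STAT factors, and the motif GTTAAT of HNF1.
Muc1, chr3:89228806-89229105, plus strand: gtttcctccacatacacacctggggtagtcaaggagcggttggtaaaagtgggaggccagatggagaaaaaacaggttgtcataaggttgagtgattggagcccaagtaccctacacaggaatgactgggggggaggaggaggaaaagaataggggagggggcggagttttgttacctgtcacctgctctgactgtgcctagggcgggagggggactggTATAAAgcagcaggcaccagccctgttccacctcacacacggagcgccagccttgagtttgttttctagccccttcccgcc
Muc4, chr16:32735636-32735935, plus strand: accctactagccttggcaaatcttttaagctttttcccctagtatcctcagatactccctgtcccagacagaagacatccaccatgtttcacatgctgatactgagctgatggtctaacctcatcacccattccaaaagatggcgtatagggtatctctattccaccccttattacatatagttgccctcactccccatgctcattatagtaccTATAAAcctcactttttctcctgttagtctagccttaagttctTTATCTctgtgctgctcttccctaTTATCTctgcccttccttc
Muc20, chr16:32797386-32797685, minus strand: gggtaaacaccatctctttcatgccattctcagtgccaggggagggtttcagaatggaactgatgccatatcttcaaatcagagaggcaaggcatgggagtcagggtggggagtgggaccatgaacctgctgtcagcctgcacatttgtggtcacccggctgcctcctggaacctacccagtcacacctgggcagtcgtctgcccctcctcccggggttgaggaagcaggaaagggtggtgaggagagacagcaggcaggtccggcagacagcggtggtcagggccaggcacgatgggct
Muc13, chr16:33793787-33794086, plus strand: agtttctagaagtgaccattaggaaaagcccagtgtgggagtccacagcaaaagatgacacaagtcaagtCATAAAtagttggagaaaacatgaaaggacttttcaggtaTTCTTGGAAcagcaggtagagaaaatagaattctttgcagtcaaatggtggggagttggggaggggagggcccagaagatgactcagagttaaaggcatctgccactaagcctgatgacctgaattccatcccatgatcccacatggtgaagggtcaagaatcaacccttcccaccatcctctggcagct

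The Muc1 and Muc4 windows each held TATAAA, at bases 220 and 215 of the window, and 13.6% of 32851 RefSeq promoter windows of the same length held it. The Muc4 window also held AGATAA on the opposite strand at bases 258 and 282, a match present in 11.2% of windows. The first Muc13 window held TTTATG on the opposite strand at base 71 and TTCNNNGAA at base 111, with shares of 11.9% and 8.30% over all windows. A second RefSeq start of Muc13 has the window chr16:33794239-33794538, which held GTTAAT at base 190, found in 7.10% of windows. The Muc20 window held none of these letters, and no window of the 4 genes held CCACGT, the core bound by XBP1, present in 8.31% of windows. Muc4 and Muc20 thus shared no capitalised motif. CACCC (KLF) and CANNTG (E box) were searched as well and are not marked, since 57.5% and 72.3% of windows held them. CACCC was in the Muc4 and Muc20 windows and in no Muc1 or Muc13 window, and CANNTG was in every window of the 4 genes. The motifs searched were short, their matches may overlap, and a match is a description of the letters alone.

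Library totals ran from 5865619 to 23154481 counts, and the lowest were CONV libraries. Markers of epithelium were present throughout, with the summed level of Epcam, Cdh1, Krt8, Krt18, Krt19, Vil1 and Cdx2 between 9847 and 13344 CPM (counts scaled to the library total) and none of them at 0. Ern2 itself, as a check of the genotype labels, had 1909 to 3100 normalized counts (counts divided by DESeq2 size factors over the 18 libraries) in the 9 WT libraries. The libraries labelled Ern2-/- had 2877, 386.1 and 3336 in GF, 2567, 1325 and 1885 in GF-Colonized and 998.3, 1622 and 1487 in CONV. Thus 3 libraries labelled Ern2-/-, namely GF replicates 1 and 3 and GF-Colonized replicate 1, had Ern2 levels inside or above the WT range on this scale, and they are the libraries with WT-like Ern2 levels left out in fits below. On the CPM scale Ern2-/- GF-Colonized replicate 3, at 133.8, also lay inside the WT range of 125.0 to 210.8, and it was kept in those fits. Which part of the gene the allele removes is not given in the labels. WT CONV replicate 3 stood apart from its group, with a sum of 10 goblet cell markers of 5502 CPM against 32665 and 29723, and a sum of 10 surface colonocyte markers of 20246 CPM against 2813 and 5134. These sums lay nearer those of the Ern2-/- CONV libraries, 3993 to 4667 and 21113 to 27392 CPM, while its Ern2 level of 2089 lay above theirs. Whether its label is right was not tested. Ern2-/- GF replicate 2 stood apart as well, with a colonocyte sum of 27061 CPM against 4592 and 6980. None of the markers of either list was at 0 in any library. Genes linked to the Y chromosome were expressed in 1 of 3 WT CONV, 0 of 3 WT GF and 2 of 3 WT GF-Colonized libraries, and in 3, 2 and 2 of 3 libraries labelled Ern2-/- in CONV, GF and GF-Colonized.

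Muc13 was by far the most abundant of the 4 transcripts. On a scale that divides by exon length and library total (RPKM, computed from the counts with union exon lengths), Muc13 measured 573 ± 78.6 (SD, n = 3) in WT GF, against 11.6 ± 1.04 for Muc4, 7.95 ± 1.19 for Muc1 and 0.0536 ± 0.0148 for Muc20. In every library Muc13 held between 89.0% and 99.3% of the RPKM summed over the 4 genes. The share of Muc4 in that sum had a mean of 1.96% in WT GF, 4.11% in WT GF-Colonized and 7.25% in WT CONV. It had a mean of 1.31%, 3.43% and 2.5% in the Ern2-/- groups in the same order. Raw counts behind these levels ran from 5179 to 42754 per library for Muc13, from 474 to 8394 for Muc4, from 8 to 462 for Muc1 and from 0 to 33 for Muc20. Muc20 was therefore the member whose level the depth resolved least, with 10 or more counts in 7 of 18 libraries.

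Muc4, the ErbB2-binding mucin, varied 16.1-fold between its lowest and highest library. Its normalized counts were 2216, 2032 and 2024 in WT GF, 4735, 3760 and 4157 in WT GF-Colonized, and 7916, 6933 and 997.1 in WT CONV. All 3 WT GF-Colonized libraries lay above all 3 WT GF libraries, and WT CONV spanned both groups because of replicate 3. In the libraries labelled Ern2-/- the values were 1994, 492.3 and 1413 in GF, 4223, 3893 and 2663 in GF-Colonized, and 4116, 1840 and 1308 in CONV. There too GF-Colonized lay above GF without overlap, whereas CONV overlapped both. The share of all genes whose groups separate in this way was not computed, here or for the other mucins. In order of the group means, neighbouring groups overlapped except WT GF and Ern2-/- GF, the lowest pair, whose ranges were separated by 2024 against 1994.

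Muc1, the mucin with a kinase-binding tail, was highest in WT GF at 304.2, 236.1 and 320.7 normalized counts. WT GF-Colonized libraries had 114.1, 255.6 and 112.7, and WT CONV libraries had 138.6, 160.0 and 14.6. The second WT GF-Colonized library lay within the WT GF range, and it was the one WT GF-Colonized library without expression of Y-linked genes, as were all 3 WT GF libraries. The libraries labelled Ern2-/- had 151.4, 84.2 and 164.7 in GF, 168.7, 61.2 and 77.2 in GF-Colonized and 11.5, 53.3 and 22.1 in CONV. Ern2-/- CONV was the lowest group and did not overlap Ern2-/- GF-Colonized, the group next above it. WT CONV replicate 3 lay within the Ern2-/- CONV range. The order of the group means on the CPM scale exchanged WT CONV and Ern2-/- GF-Colonized, which overlapped on both scales.

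Muc13, the abundant mucin of the family, varied least, by 3.43-fold over the 18 libraries. Its normalized counts were 28937, 27231 and 23862 in WT GF, 21240, 31320 and 25990 in WT GF-Colonized, and 19635, 16375 and 9458 in WT CONV. The libraries labelled Ern2-/- had 27343, 32447 and 20982 in GF, 30442, 24676 and 22542 in GF-Colonized, and 32438, 19276 and 17270 in CONV. WT CONV was the group with the lowest mean, and all 3 of its libraries lay below every WT GF and WT GF-Colonized library. All groups that neighbour each other in the order of means overlapped, and the order of the 4 upper groups changed when CPM was used.

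Muc20, the Met-binding member, was near the limit of detection. Normalized counts were 2.3, 4.2 and 3.5 in WT GF, 9.27, 18.4 and 26.2 in WT GF-Colonized and 25.5, 26.7 and 0 in WT CONV. They were 5.22, 1.00 and 4.17 in Ern2-/- GF, 7.12, 9.00 and 8.02 in Ern2-/- GF-Colonized and 0 in each Ern2-/- CONV library. Each GF-Colonized group lay above the GF group of the same genotype without overlap. In Ern2-/- this rested on raw counts of 10, 10 and 8 against 7, 1 and 4, and the fit below did not call Muc20 there. A count of 0 allows a level of up to 0.195, 0.423 and 0.511 CPM in the 3 Ern2-/- CONV libraries and 0.366 CPM in WT CONV replicate 3 (3 counts per library, counting error only), whereas WT CONV replicates 1 and 2 measured 1.70 and 1.81 CPM.

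**Figure D1:**
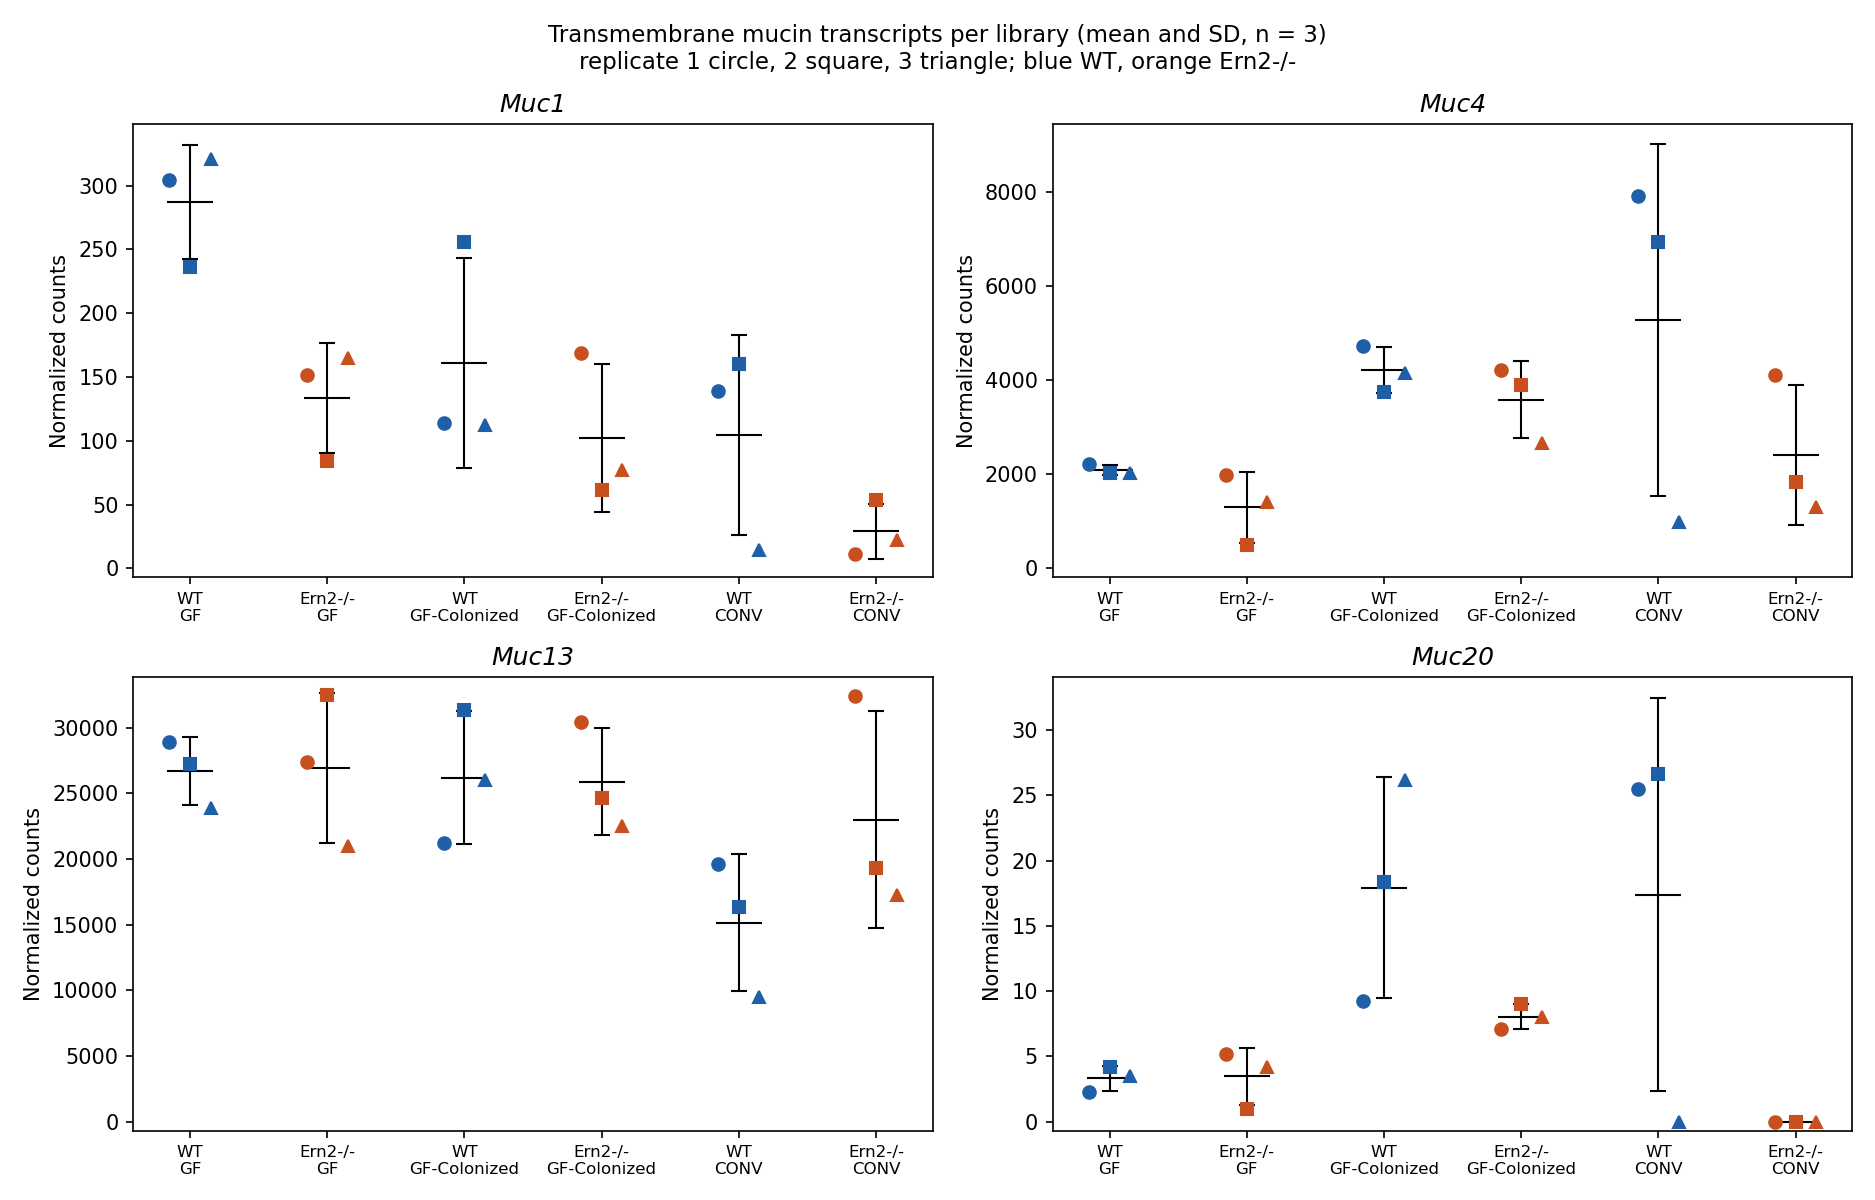
Normalized counts (y axis, linear from 0) of Muc1, Muc4, Muc13 and Muc20 in each of 18 libraries, by group (x axis), with the mean as a horizontal line and the SD as the error bar (n = 3, lower end not drawn below 0). Blue marks WT and orange Ern2-/-, and circle, square and triangle mark replicates 1, 2 and 3; WT CONV replicate 3 (blue triangle, 997.1 for Muc4 and 0 for Muc20) is the lowest WT library in all 4 panels.

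Colonization of germ-free WT mice was the comparison with the most calls over the genome, 18.3% of 13635 genes tested (DESeq2, adjusted p under 0.01), and 2 of the 4 mucins were called, both higher, a direction that 9.35% of genes took. Muc4 rose 2.03-fold (log2 fold change 1.02, SE 0.13, adjusted p = 6.25e-12 by DESeq2), and it was the one member also called by edgeR's quasi-likelihood test (adjusted p = 0.00502), which called 4.94% of genes. In a fit of all 18 libraries, which share 1 estimate of the spread, Muc4 was 1.01 with an adjusted p of 0.22 by DESeq2 and was not called. Muc20 rose by 2.43 on the log2 scale (SE 0.71, adjusted p = 0.00419 by DESeq2), but edgeR gave an adjusted p of 0.0156. Every fit that left out 1 library other than WT GF-Colonized replicate 1 ended the Muc20 call, with values of 2.06 to 2.63 and adjusted p-values of 0.0147 to 0.0666. Muc1 stood at -0.83 on the log2 scale (SE 0.32, adjusted p = 0.0363) and was not called. Without WT GF-Colonized replicate 2 it was called at -1.33 (adjusted p = 6.32e-07), and with expression of Y-linked genes as a covariate the value was -0.16. The value with that covariate rests on WT GF-Colonized replicate 2 alone against WT GF, because the other WT GF-Colonized libraries expressed Y-linked genes and no WT GF library did. Muc13 had a log2 fold change of -0.017, with a 95% interval of -0.35 to 0.31. Muc2 rose in the same comparison by 1.55 on the log2 scale (SE 0.13, adjusted p = 7.63e-29), and the sum of goblet cell markers, which includes Muc2, was 18858 to 22990 CPM in WT GF-Colonized against 11588 to 15647 CPM in WT GF. Of 10 goblet markers 6 were called higher and 2 lower, and of 10 surface colonocyte markers 1 was called higher and 3 lower. Of tuft cell markers 4 of 5 were called higher, and of stem and cycling markers 4 of 8, with none lower. In bulk RNA, fewer cells of a type and less RNA per cell cannot be told apart, and the part of cell composition in the mucin values was not tested.

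In libraries labelled Ern2-/-, colonization gave a call for 1 of the 4 mucins, where 7.17% of genes were called and 3.6% were called higher. Muc4 rose 2.76-fold (log2 fold change 1.47, SE 0.42, adjusted p = 0.0071 by DESeq2), and edgeR, which called 0.216% of genes, gave an adjusted p of 0.095. The call held without Ern2-/- GF replicate 1 (1.91) or replicate 2 (1.09). It was lost without Ern2-/- GF replicate 3 (1.53) and without Ern2-/- GF-Colonized replicate 1 (1.33), 2 (1.41) or 3 (1.64). Muc20 had a value of 1.19 (SE 0.93), Muc1 of -0.38 (SE 0.44) and Muc13 of -0.062 (SE 0.23), and none was called. In the same comparison 6 of 10 surface colonocyte markers were called lower and none higher, and 3 of 10 goblet markers higher and 1 lower. Of enteroendocrine markers 3 of 5 were called higher, and of stem and cycling markers 3 of 8, with none lower. Their part in the mucin values was not tested. Without the 3 libraries with WT-like Ern2 levels, which left Ern2-/- GF replicate 2 as the only germ-free library, Muc4 was 2.71 higher on the log2 scale (adjusted p = 1.45e-16), where 10.5% of genes were called. That remaining library had the lowest Muc4 level of all 18. The interaction, which asks whether the response to colonization differed between the genotype labels, called 0.028% of genes and none of the 4 mucins by DESeq2. Its log2 values were 0.45 for Muc4 (95% interval -0.54 to 1.45), 0.46 for Muc1 (-0.69 to 1.60), -0.035 for Muc13 (-0.60 to 0.53) and -1.25 for Muc20 (-3.20 to 0.70). The Muc4 interaction was 1.71 (adjusted p = 6.51e-06) without the 3 libraries with WT-like Ern2 levels, where 3.41% of genes were called.

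Between conventional and germ-free WT mice 11.0% of genes were called, and none of the 4 mucins. The log2 fold changes were 1.33 for Muc4 (SE 0.63, adjusted p = 0.132), 2.40 for Muc20 (SE 1.10, adjusted p = 0.115), -1.46 for Muc1 (SE 0.68, adjusted p = 0.122) and -0.83 for Muc13 (SE 0.31, adjusted p = 0.0424), all from DESeq2. At an unadjusted p under 0.05, all 4 passed by DESeq2 and Muc13 alone by edgeR, which did not test Muc20. Leaving out WT CONV replicate 3 raised the share of all genes called to 20.8% and brought all 4 past the threshold, with values of 1.83 for Muc4 (adjusted p = 1.64e-36), 2.96 for Muc20 (adjusted p = 0.000402), -0.95 for Muc1 (adjusted p = 0.00062) and -0.57 for Muc13 (adjusted p = 0.00301). The directions were the same with and without that library. With the library total as covariate, Muc4 was 3.07 (adjusted p = 1.48e-10), Muc20 was 5.85 (adjusted p = 0.00273), and Muc1 turned to 0.43 (adjusted p = 0.676). The low goblet and high colonocyte marker sums of WT CONV replicate 3 moved with its mucin levels, and their part in the result was not tested. Between WT CONV and WT GF-Colonized, 0.119% of genes and none of the 4 mucins were called, with log2 fold changes of 0.31 for Muc4 (95% interval -0.94 to 1.56), -0.027 for Muc20 (-1.94 to 1.89), -0.63 for Muc1 (-2.10 to 0.84) and -0.80 for Muc13 (-1.43 to -0.17, adjusted p = 0.344). At an unadjusted p under 0.05 Muc13 alone passed, by DESeq2 and by edgeR. Muc4 in that comparison was 0.80 (adjusted p = 6.96e-06) without WT CONV replicate 3, where 1.59% of all genes were called. With the library total as covariate it was 1.87 (adjusted p = 8.24e-14), while Muc1 turned to 1.29 (adjusted p = 0.0756) and Muc20 to 2.45 (adjusted p = 0.185).

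**Figure D2:**
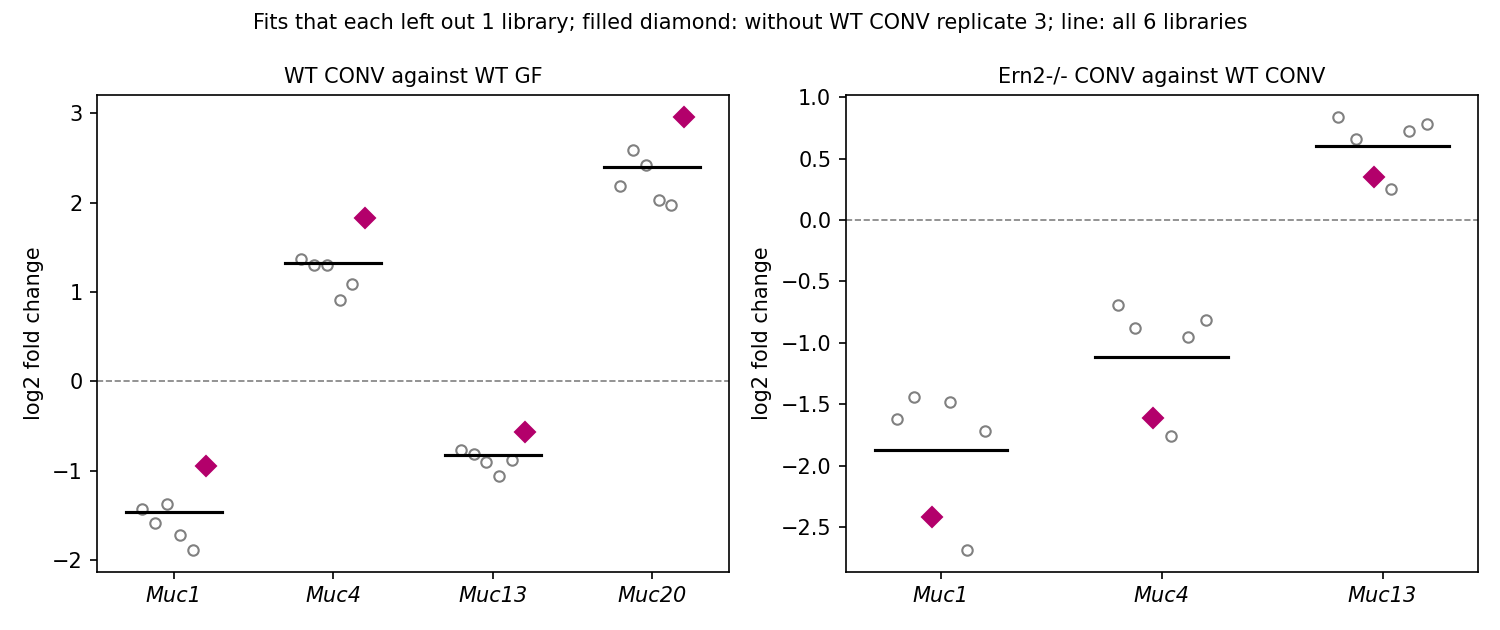
Log2 fold changes (y axis) of WT CONV against WT GF (left) and of Ern2-/- CONV against WT CONV (right) for each mucin (x axis), from all 6 libraries (line) and from the fits that each left out 1 library (circles, with the fit without WT CONV replicate 3 as a filled diamond). Without that library Muc4 moved from 1.33 to 1.83 on the left and from -1.12 to -1.61 on the right; Muc20 is left out on the right because all Ern2-/- CONV libraries had 0 counts.

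Conventional against germ-free libraries labelled Ern2-/- gave 4.34% of genes called, 2.77% lower, and 1 of the 4 mucins, Muc1. It fell 4.79-fold (log2 fold change -2.26, SE 0.56, adjusted p = 0.00186 by DESeq2), while edgeR, which called 0.0325% of genes, gave an adjusted p of 0.0841. The call held without Ern2-/- GF replicate 2 (-2.51) or Ern2-/- CONV replicate 2 (-3.10). It was lost without Ern2-/- GF replicate 1 (-2.15) or 3 (-2.07) and without Ern2-/- CONV replicate 1 (-1.81) or 3 (-2.11). The goblet sum was 3993 to 4667 CPM in Ern2-/- CONV and 5959 to 12595 CPM in Ern2-/- GF, with 3 of 10 markers called lower and 1 higher. The surface colonocyte sum was 21113 to 27392 CPM against 4592 to 27061 CPM. Their part in the Muc1 value was not tested. Without the 3 libraries with WT-like Ern2 levels the value was -1.58 (adjusted p = 0.389). Muc4 had a value of 0.89 (SE 0.51) and Muc13 of -0.23 (SE 0.30), neither called, but without those 3 libraries, a fit that called 3.18% of genes, Muc4 was called at 2.29 (adjusted p = 0.00149). That value rests on Ern2-/- GF replicate 2 as the only germ-free library, with the lowest Muc4 level of all 18 and a colonocyte sum of 27061 CPM. Muc20 had 12 counts over the 3 GF libraries and 0 over the 3 CONV libraries, and DESeq2's filter gave it no adjusted p. The pooled GF level was 2.20-fold a floor of 3 counts over the CONV group. That ratio leaves out the counting error of the GF counts and the spread between libraries. Ern2-/- CONV replicate 1 held most of the counts behind that floor, and without it the ratio was 1.00-fold, so that no difference was detectable at this depth. Ern2-/- GF replicate 2, at 0.0574 CPM, lay below the floor of 0.106 CPM. Conventional against colonized libraries labelled Ern2-/- gave 8.59% of genes called and none of the 4 mucins. Muc1 came nearest, at -1.87 (SE 0.57, adjusted p = 0.0125), Muc4 had -0.56 (SE 0.37), Muc13 had -0.17 (SE 0.26), and Muc20 had an unadjusted p of 0.00389 by DESeq2. The pooled Muc20 level of GF-Colonized was 5.27-fold the same floor, and 2.40-fold without Ern2-/- CONV replicate 1, with the same limits. At an unadjusted p under 0.05 Muc1 and Muc20 passed by DESeq2, and Muc1 by edgeR, which did not test Muc20. The surface colonocyte sum was 21113 to 27392 CPM in Ern2-/- CONV against 7178 to 13000 CPM in Ern2-/- GF-Colonized, with 8 of 10 markers called higher. The goblet sum was 3993 to 4667 CPM against 9962 to 19067 CPM, with 5 of 10 markers called lower. Their part in the mucin values was not tested. Muc1 was called without Ern2-/- CONV replicate 2 (-2.71, adjusted p = 0.000348), and Muc4 without Ern2-/- CONV replicate 1 (-1.19, adjusted p = 2.46e-05), the deepest CONV library of that genotype and one whose removal raised the share of genes called to 18.4%.

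Fitted to the 6 libraries of each microbial state with no covariate, DESeq2 called none of the 4 mucins between the genotype labels. In CONV mice 3.03% of genes were called. There the log2 difference was, for Muc1, -1.87 (SE 0.86, adjusted p = 0.218), for Muc4 -1.12 (SE 0.70, adjusted p = 0.434) and for Muc13 0.61 (SE 0.38, adjusted p = 0.436) in Ern2-/- against WT. Muc20 had 54 counts over the WT CONV libraries and 0 over the Ern2-/- CONV libraries (adjusted p = 0.0688 by DESeq2). The pooled WT CONV level was 13.1-fold a floor of 3 counts over the Ern2-/- CONV group, and 5.98-fold without Ern2-/- CONV replicate 1. That ratio leaves out the spread between the WT CONV libraries, of which replicate 3 itself had 0 Muc20 counts. In the fit of all 18 libraries Muc20 was called there (adjusted p = 0.00184 by DESeq2). At an unadjusted p under 0.05, Muc1 and Muc20 passed by DESeq2 and none of the 3 mucins tested by edgeR. Without WT CONV replicate 3, Muc1 (-2.42, adjusted p = 0.00061), Muc4 (-1.61, adjusted p = 0.00265) and Muc20 (adjusted p = 0.00039) were called lower and Muc13 was not, where 12.4% of all genes were called. In that comparison the goblet marker sum was 3993 to 4667 CPM in Ern2-/- CONV and 5502 to 32665 CPM in WT CONV, and 6 of 10 goblet markers were called lower and 6 of 10 surface colonocyte markers higher. With the library total as a covariate Muc4 was 0.079 and Muc13 was 1.03 (adjusted p = 8.66e-06), and library totals and groups overlapped only in part.

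In germ-free mice 0.035% of genes were called between the genotype labels, and none of the mucins. Muc1 did not overlap between WT GF and Ern2-/- GF, with a log2 fold change of -1.10 (SE 0.31, unadjusted p = 0.000371, adjusted p = 0.531 by DESeq2). Muc4 had -0.68 (95% interval -1.49 to 0.12), Muc13 0.020 (-0.41 to 0.45) and Muc20 0.076 (-2.13 to 2.28). Muc1 alone passed an unadjusted p of 0.05, by DESeq2 and by edgeR. With Ern2-/- GF replicate 2 as the only library of its group, the others having WT-like Ern2 levels, Muc1 was -1.75 (adjusted p = 0.000108) and Muc4 -2.07 (adjusted p = 1.80e-18), a result of 1 library with a high colonocyte sum, in a fit that called 4.53% of genes. In GF-Colonized mice 1.37% of genes were called, and none of the mucins, with -0.65 for Muc1 (-1.46 to 0.15), -0.23 for Muc4 (-0.60 to 0.13), -0.021 for Muc13 (-0.37 to 0.32) and -1.16 for Muc20 (-2.32 to -0.0021, no adjusted p), the one of the 4 with an unadjusted p under 0.05, by DESeq2 and by edgeR. The interaction of genotype label with conventional against germ-free state called 0.177% of genes and no mucin, with -0.44 for Muc4 (-2.23 to 1.35), -0.79 for Muc1 (-2.64 to 1.07) and 0.59 for Muc13 (-0.29 to 1.47). Muc20, the one member with an unadjusted p under 0.05 in an interaction, had an adjusted p of 0.211 there, and 0.00814 without WT CONV replicate 3.

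**Figure D3:**
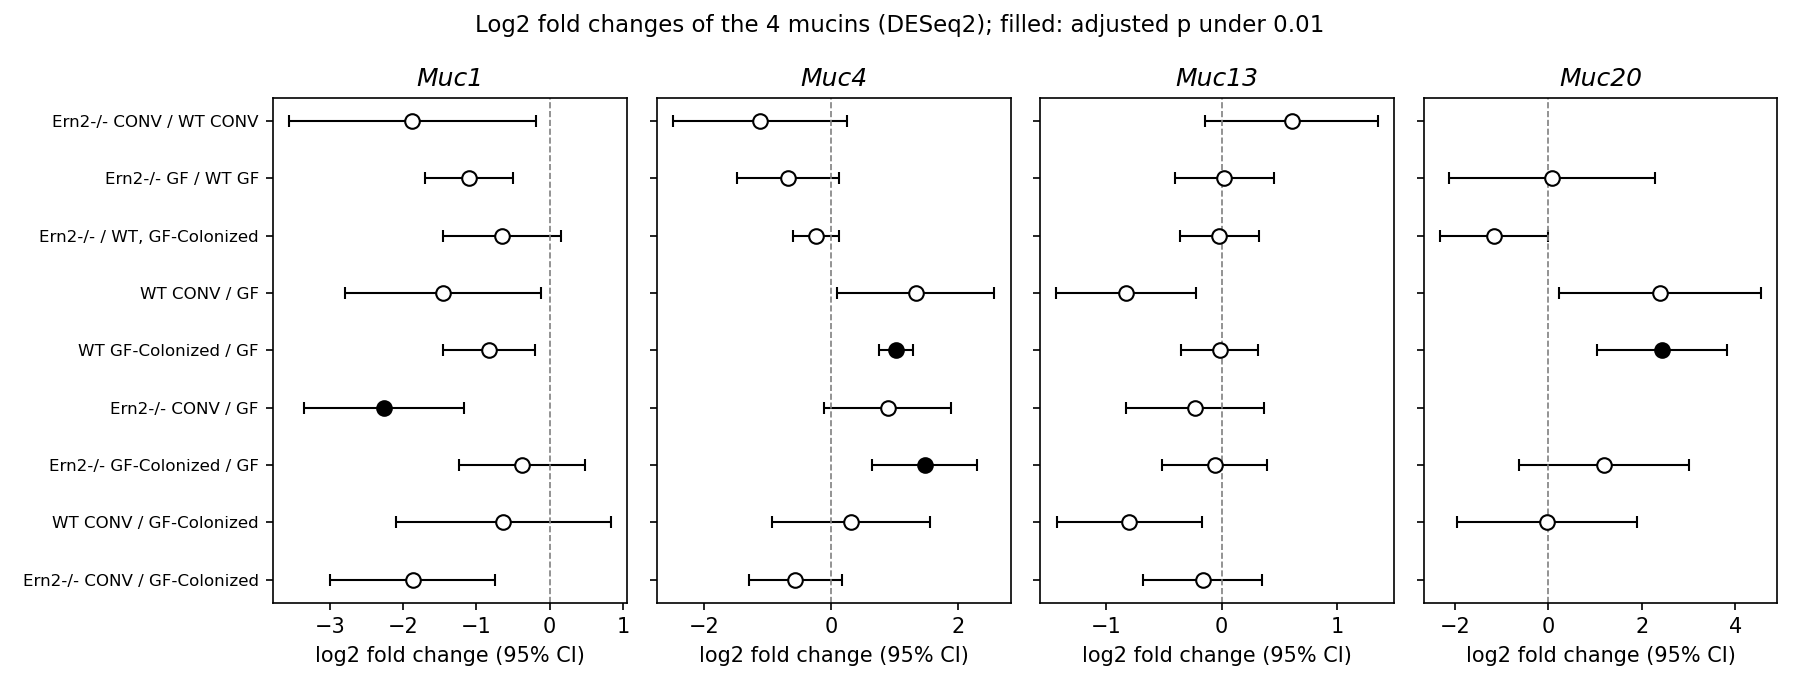
Log2 fold changes with 95% confidence intervals (x axis, DESeq2) of each mucin in 9 comparisons (y axis), the group before the slash over the group after it. Filled points passed an adjusted p of 0.01, namely Muc4 and Muc20 in WT GF-Colonized over GF, Muc4 in Ern2-/- GF-Colonized over GF and Muc1 in Ern2-/- CONV over GF; Muc20 is not drawn for comparisons with Ern2-/- CONV, whose libraries had 0 counts.

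Muc4 and Muc20 followed Muc2 across the libraries, and Muc13 did not. Over 18 libraries, Pearson's r of log2(normalized count + 1) with Muc2 was 0.91 for Muc4, 0.88 for Muc20, 0.45 for Muc1 and 0.065 for Muc13. With the 6 group means removed the values were 0.96, 0.89, 0.71 and 0.57. Muc4 and Muc20 had r of 0.70 with each other, and Muc4 with Muc13, on the same chromosome 1011645 bases apart, had 0.11, which was 0.58 with the group means removed. Against Krt20 and Slc26a3, markers of surface colonocytes, Muc4 had r of -0.62 and -0.63, Muc20 had -0.83 and -0.65, Muc1 had -0.61 and -0.26 and Muc13 had -0.16 and 0.24. With the group means removed these were -0.74 and -0.36 for Muc4, -0.60 and -0.18 for Muc20, -0.53 and -0.47 for Muc1 and -0.43 and 0.043 for Muc13. The libraries share groups, depth and the library that stood apart, so these are descriptions of 18 points that are not independent, and the Muc20 values rest on few counts. Among 10851 genes (10852 for Muc20) with a mean of at least 50 normalized counts, the closest to Muc4 were Slc7a6 (0.94), an amino acid transporter, Fut2 (0.94), the fucosyltransferase that makes H antigen on mucosal glycans, and Pvrl1 (0.92), the adhesion protein nectin-1. The closest to Muc1 were P2rx4 (0.94), an ATP-gated channel, B3gnt7 (0.93), a glycosyltransferase, and Nxpe4 (0.92). Those of Muc13 were Dhcr7 (0.94), the last enzyme of cholesterol synthesis, Tpp1 (0.94), a lysosomal peptidase, and Cmtm6 (0.94), and those of Muc20 were Tmem231 (0.93), Reep5 (0.93) and Tspan13 (0.92). With the group means removed, Muc2 was the sixth closest gene to Muc4.

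**Figure D4:**
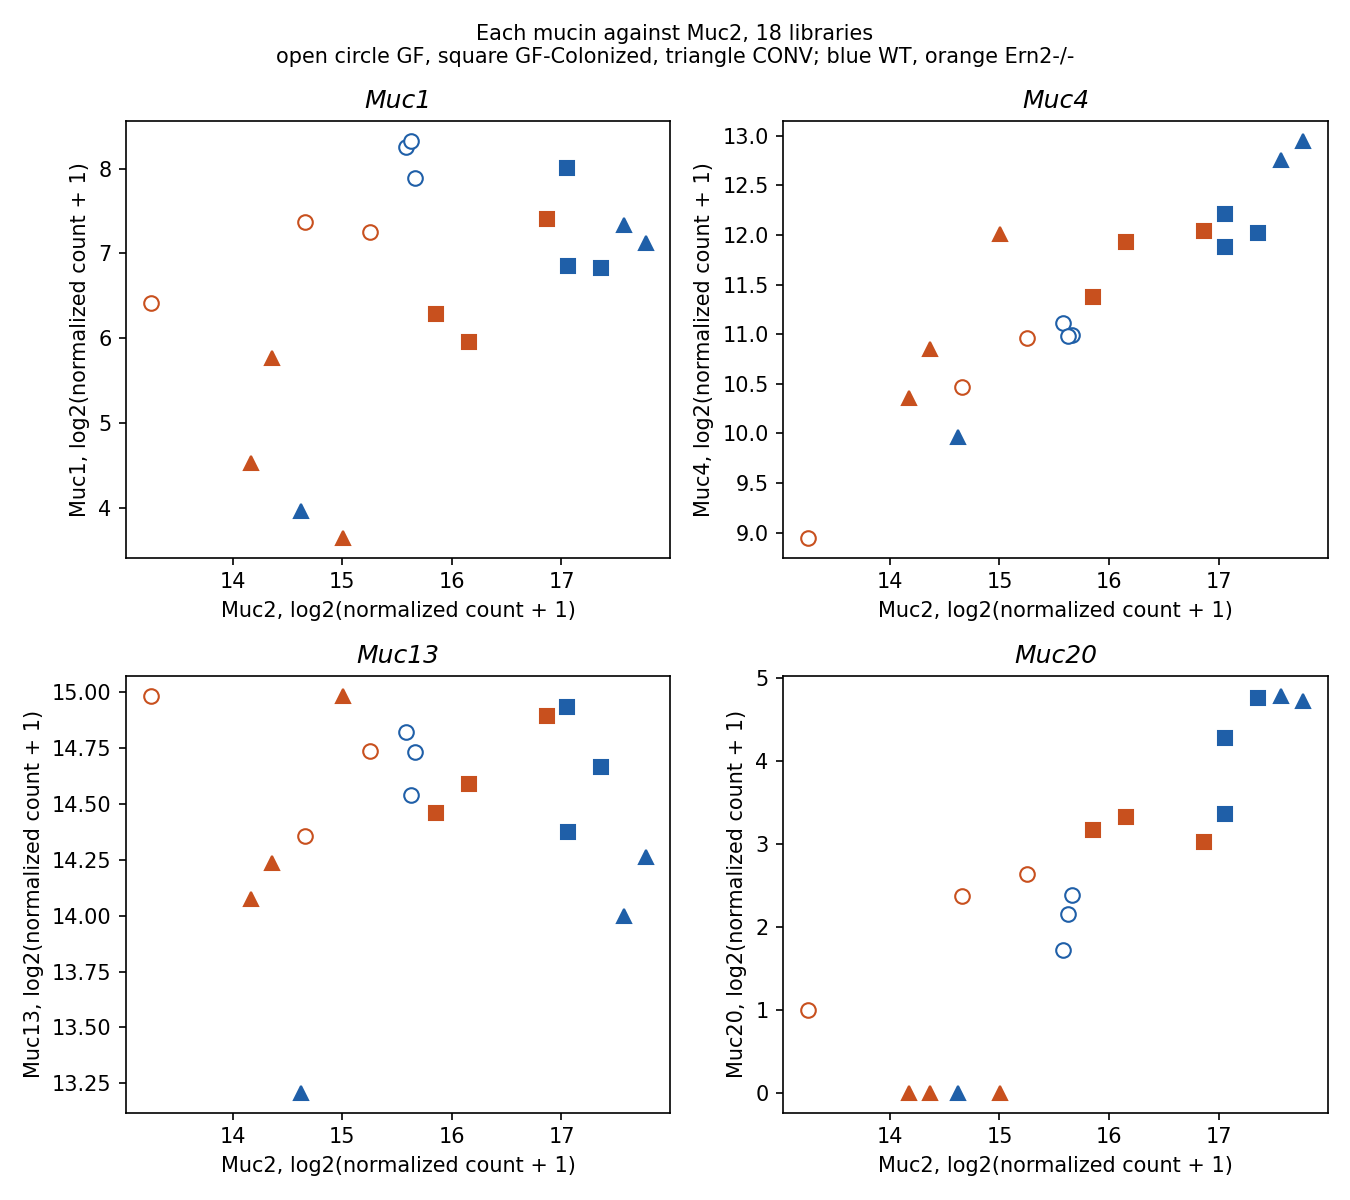
Log2(normalized count + 1) of each mucin (y axis) against Muc2 (x axis) in 18 libraries, with open circles for GF, squares for GF-Colonized and triangles for CONV, blue for WT and orange for Ern2-/-. Muc4 and Muc20 lie along a rising band (r = 0.91 and 0.88), Muc13 does not (0.065), and the blue triangle among the orange ones is WT CONV replicate 3.

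Of 9 other transmembrane mucins and mucin-like proteins on the list examined, 3 were in the table used, and the others were not analysed here. Muc15 had 0 counts in all libraries, and Emcn, the endothelial sialomucin endomucin, had at most 1 count in a library. Cd164, the sialomucin endolyn, had group means of 2210 to 4854 normalized counts, and it fell in Ern2-/- CONV against Ern2-/- GF-Colonized (log2 fold change -1.13, SE 0.28, adjusted p = 0.00108), the one comparison in which it was called. That call was lost by edgeR, in the fit of all 18 libraries, with the library total as covariate, and without Ern2-/- GF-Colonized replicate 2 or Ern2-/- CONV replicate 2 or 3. Among 5 secreted mucins, Muc2 and Muc6, a gel-forming mucin of gastric and deep glands, were the ones called anywhere. Muc2 rose with colonization of WT mice (1.55, above) and in the libraries labelled Ern2-/- (1.75, SE 0.44, adjusted p = 0.00132). The call in the latter was lost by edgeR, in the fit of all 18 libraries, with either covariate (Y-linked expression or library total), and without Ern2-/- GF-Colonized replicate 1 or 2. Leaving out the 3 libraries with WT-like Ern2 levels cannot decide whether it holds. That fit has Ern2-/- GF replicate 2, which stood apart in its colonocyte sum, as its only germ-free library. Muc2 was lower in Ern2-/- CONV than in WT CONV (-2.61, SE 0.66, adjusted p = 0.00349), a comparison in which Muc4 had the same sign and was not called. Neither Muc2 nor Muc6 was called there by edgeR or without WT CONV replicate 2 or Ern2-/- CONV replicate 3. Muc2 also fell in Ern2-/- CONV against Ern2-/- GF-Colonized (-1.79, SE 0.31, adjusted p = 4.71e-07), a call that held without each library in turn and was lost by edgeR and in the fit of all 18 libraries. Muc6 rested on few counts, 4 over the WT GF libraries and 147 over the WT GF-Colonized libraries (log2 fold change 5.29, adjusted p = 2.39e-07). It had 12 counts over the Ern2-/- GF-Colonized libraries, lower than in WT GF-Colonized (-3.45, adjusted p = 2.50e-05), and 1 count over the Ern2-/- CONV libraries against 123 over WT CONV (adjusted p = 0.000549). The call after colonization was lost by edgeR, with the library total as covariate, and without the third library of either group.

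The receptor and signalling partners listed bind the tails or extracellular domains of these mucins or act next to them. Of 14 tested in WT CONV against WT GF, where 11.0% of all genes were called, none rose and 2 fell, Erbb3 (-1.56, SE 0.31, adjusted p = 1.45e-05) and Erbb2 (-1.22, SE 0.31, adjusted p = 0.00146), receptors of the EGF family, and the list's median was -0.24 against -0.00099 over all genes. The count became 0 with the library total as covariate and 1 without WT GF replicate 2 or 3. In the same comparison 5 of 10 surface colonocyte markers were called lower and none higher, and 3 of 10 goblet markers higher and 2 lower. Their part in the Erbb2 and Erbb3 values was not tested. Erbb3 fell also with colonization, by 0.92 in WT (adjusted p = 0.000165) and by 0.80 in Ern2-/- (adjusted p = 0.003), as 1 of 14 partners in each, where 18.3% and 7.17% of all genes were called. The call in WT was lost in the fit of all 18 libraries and with either covariate (Y-linked expression or library total). The call in Ern2-/- was lost in the fit of all 18 libraries and without Ern2-/- GF replicate 1 or any 1 of the 3 Ern2-/- GF-Colonized libraries. In Ern2-/- CONV against Ern2-/- GF-Colonized, where 8.59% of all genes were called, 3 of 13 partners rose, Lgals3 (1.22), a galectin that binds Muc1 glycans, Ctnnb1 (0.84), encoding beta-catenin, and Src (0.61), and none fell. That count became 0 in the fit of all 18 libraries, 1 with Y-linked expression as covariate or without Ern2-/- GF-Colonized replicate 1 or 3, and 4 higher with 1 lower of 14 without Ern2-/- CONV replicate 1, where 18.4% of all genes were called. In Ern2-/- CONV against Ern2-/- GF-Colonized, 8 of 10 surface colonocyte markers were also called higher and 5 of 10 goblet markers lower. Their part in the partner values was not tested. By edgeR no partner was called in any of these comparisons. No partner was called between genotype labels, although without WT CONV replicate 3 the CONV comparison called 5 of 13 higher, where 12.4% of all genes were called.

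Among 8 apical adaptors and cytoskeletal linkers, Slc9a3r2, a PDZ scaffold, and Myo1a, the brush border myosin, took opposite directions wherever both were called. In WT GF-Colonized against WT GF, Slc9a3r2 rose by 0.95 (adjusted p = 2.16e-05) and Myo1a fell by 1.00 (adjusted p = 2.44e-06), and Ezr, encoding the membrane linker ezrin, fell by 0.64 (adjusted p = 0.00658), 3 of 8 where 18.3% of all genes were called. In Ern2-/- CONV against Ern2-/- GF-Colonized, where 8.59% of all genes were called, 3 of 7 adaptors rose and none fell, namely the PDZ scaffold Slc9a3r1 (1.48, adjusted p = 1.19e-17), Myo1a (0.86, adjusted p = 1.57e-06) and Vil1 (0.64, adjusted p = 5.33e-05), encoding the actin-bundling protein villin. The count was 3 or 4 without each library in turn, 2 with Y-linked expression as covariate, and 1 by edgeR or in the fit of all 18 libraries. In the same comparison 8 of 10 surface colonocyte markers were called higher and none lower, and 5 of 10 goblet markers lower and none higher. Their part in the adaptor values was not tested. In Ern2-/- CONV against WT CONV, Slc9a3r2 was lower (-2.40, adjusted p = 7.83e-08) and Myo1a higher (0.95, adjusted p = 0.00711), 2 of 7 adaptors tested where 3.03% of all genes were called. edgeR called neither, and without any 1 library other than WT CONV replicate 3 only 1 adaptor, lower, was called, whereas without that replicate 3 were called higher and 1 lower. Of 7 sheddases and proteases, none was called in either WT comparison with GF, and Prss8, the membrane protease prostasin, fell in Ern2-/- CONV against Ern2-/- GF (-1.06, adjusted p = 0.000302), a call lost by edgeR, with the library total as covariate, and without Ern2-/- GF replicate 1 or the libraries with WT-like Ern2 levels. In Ern2-/- CONV against Ern2-/- GF-Colonized, Prss8 (-0.75) and Mmp14 (-0.80), a membrane metalloprotease, fell, and the list's median was -0.66 against -0.0060 over all genes. These 2 of 7, where 8.59% of all genes were called, became 6 of 7 without Ern2-/- CONV replicate 1, where 18.4% were called. They became 0 by edgeR, in the fit of all 18 libraries, with either covariate, and without Ern2-/- GF-Colonized replicate 1 or 3 or Ern2-/- CONV replicate 3, and 1 without the second library of either group. The shifts of colonocyte and goblet markers given above are from this comparison too, and their part in the sheddase values was not tested.

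The polypeptide GalNAc-transferases, which add the first sugar of mucin O-glycans, gave calls in both directions. Of 13 tested in WT GF-Colonized against WT GF, where 18.3% of all genes were called and 9.35% were called higher, 4 rose, with Galnt10 (0.42, adjusted p = 0.00303), Galnt6 (0.75, adjusted p = 0.00491) and Galnt12 (0.56, adjusted p = 0.00595) the first by adjusted p, and Galnt18 fell (-1.99, adjusted p = 0.00117). Those 5 calls became 0 by edgeR, with Y-linked expression as covariate, and without WT GF replicate 2 or WT GF-Colonized replicate 1 or 3. They became 1 in the fit of all 18 libraries, 2 with the library total as covariate or without WT GF-Colonized replicate 2, and 3 without WT GF replicate 1. In Ern2-/- GF-Colonized against Ern2-/- GF, Galnt12 (0.79), Galnt3 (0.96) and Galnt6 (0.83) rose and Galnt18 fell (-2.37), 4 of 13 where 7.17% of all genes were called. They became 0 by edgeR and without the libraries with WT-like Ern2 levels, 1 in the fit of all 18 libraries or without Ern2-/- GF-Colonized replicate 1, and 2 without Ern2-/- GF-Colonized replicate 2 or 3. Galnt5 was lower in Ern2-/- CONV than in WT CONV (-2.01, adjusted p = 2.48e-05), as 1 of 12 tested where 3.03% of all genes were called. In Ern2-/- CONV against Ern2-/- GF-Colonized, Galnt5 (-1.45), Galnt7 (-0.96) and Galnt3 (-1.12) fell and none rose, 3 of 12 where 8.59% of all genes were called. That count became 9 of 13 without Ern2-/- CONV replicate 1, where 18.4% were called, and 6 with a replicate block. It became 0 by edgeR, with the library total as covariate and without Ern2-/- GF-Colonized replicate 1, and 1 in the fit of all 18 libraries and without Ern2-/- GF-Colonized replicate 2 or Ern2-/- CONV replicate 2 or 3. In the same comparison 5 of 10 goblet markers were called lower and none higher, and 8 of 10 surface colonocyte markers higher and none lower. Their part in the transferase values was not tested. Leaving out WT CONV replicate 3 raised the calls from 2 to 5 of 13 in WT CONV against WT GF and from 1 to 5 in Ern2-/- CONV against WT CONV, fits that called 20.8% and 12.4% of all genes.

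Of 13 regulators of mucin genes, Spdef, a goblet cell transcription factor, was called most often. In WT GF-Colonized against WT GF 3 of the 13 were called, where 18.3% of all genes were, and in each other comparison named here 1 was called, where between 1.37% and 11.0% of all genes were. It rose in WT GF-Colonized (1.37, SE 0.19, adjusted p = 1.51e-10) and WT CONV (1.79, SE 0.37, adjusted p = 4.34e-05) against WT GF and in Ern2-/- GF-Colonized against GF (1.18, SE 0.33, adjusted p = 0.00565). The last of these calls was lost by edgeR, with the library total as covariate, and without Ern2-/- GF replicate 1 or 2 or any 1 of the Ern2-/- GF-Colonized libraries. It was lower in Ern2-/- than in WT in CONV (-2.09, adjusted p = 1.75e-06) and in GF-Colonized mice (-0.92, adjusted p = 0.00045). In WT GF-Colonized against WT GF, Klf4 (-0.80, adjusted p = 0.000364) and Gata4 (-2.63, adjusted p = 0.000939) fell, and Foxa2 fell in Ern2-/- CONV against GF (-1.33, adjusted p = 7.87e-05). Hnf4a rose in Ern2-/- CONV against Ern2-/- GF-Colonized (0.52, adjusted p = 0.00173). By edgeR, 1 of the 13 was called in WT GF-Colonized against WT GF, higher, where 4.94% of all genes were called, and none in the other comparisons named here. The GF-Colonized genotype call of Spdef was also lost in the fit of all 18 libraries, with the library total as covariate and without WT GF-Colonized replicate 1, and the Foxa2 call with the library total as covariate and without the libraries with WT-like Ern2 levels. The Hnf4a call was lost by edgeR, in the fit of all 18 libraries, with a replicate block, with either covariate, and without Ern2-/- GF-Colonized replicate 1 or 3 or Ern2-/- CONV replicate 2 or 3, while without Ern2-/- CONV replicate 1 the list had 4 calls, all higher, where 18.4% of all genes were called.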

How the data were processed

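Colon crypt RNA from 18 libraries in 6 groups of 3 was examined for Muc1, Muc4, Muc13 and Muc20. Per the labels and the study's methods, the authors prepared KAPA stranded mRNA libraries, sequenced 75 cycles of single-end reads, aligned them with STAR and deposited raw counts per gene symbol. The submitters' processing notes name mm10, STAR and DESeq2 without versions, and the annotation and strand setting of the counting are not given in the sources used here. Columns were matched by the column number in the labels, and 0 columns had no sample.

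DESeq2 1.42.0 (R 4.3.3; Wald test, defaults otherwise, fold changes not shrunk) was run once for each of 9 pairs of groups, using only the 6 libraries of that pair, and for 2 interactions over 12 libraries. Calls required a Benjamini-Hochberg adjusted p under 0.01 over all genes tested, as in the study's methods. edgeR 4.0.16 (quasi-likelihood test), another normalization, another filter on low counts, fits of all 18 libraries, covariates for Y-linked expression and library total, a replicate block and leaving out each library were the alternatives. Leaving out the libraries with WT-like Ern2 counts, and each library in the interactions, was chosen after seeing the data. On simulated counts for WT GF-Colonized against WT GF (17242 genes, 200 changed), DESeq2 recovered 71% of 2-fold and 94% of 4-fold changes, with 13 false calls among 178 (7.30%). edgeR recovered 40% and 88%, with 2 false calls among 130 (1.54%). The changed genes were drawn above a minimum mean count that Muc20 did not reach in this comparison, and no other comparison was simulated.

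Named genes were all 4 members and, per other list, comparison and direction, at most 3 called genes by adjusted p. For likeness, the 3 genes with the highest Pearson r were named. The members and lists were chosen with earlier results of these data known. Counting intervals and floors cover counting error only. Fold values against a floor take the pooled counts of the other group as exact.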

Additional observations from a re-analysis of the deposited data

How the results depend on the processing

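Outside the fits that left out 1 library, 269 of 314 values of the 4 mucins kept their direction and side of the threshold, 14 lost a call, 10 gained one and 21 changed sign. In the fits that left out 1 library, 265 of 312 values kept both, 13 lost a call, 12 gained one and 22 changed sign. The main fits called only 4 of 44 values, so most of the values that kept their side were never called and could not lose a call. All log2 fold changes here are numerator over denominator, the microbial state or genotype named first being the numerator, and the causes of the changes were not tested.

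Muc4 in WT GF-Colonized against GF was not called in a fit of all 18 libraries (1.01), and Muc20 there was not called by edgeR (2.40), in the fit of all libraries (2.42), with Y-linked expression as covariate (2.47, no adjusted p) or with the library total as covariate (2.46). Muc1 in Ern2-/- CONV against GF was not called by edgeR (-2.26), in the fit of all libraries (-2.24), with the Y-linked covariate (-2.07) or without the libraries with WT-like Ern2 counts (-1.58). Muc4 in Ern2-/- GF-Colonized against GF was not called by edgeR (1.47), in the fit of all libraries (1.47), with the Y-linked covariate (1.44) or with the library total (1.49). Muc20 between genotypes in CONV was called in the fit of all libraries (-5.72).

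With the library total as covariate, Muc13 between genotypes in CONV (1.03) and, in WT CONV, Muc4 against GF (3.07) and GF-Colonized (1.87) and Muc20 against GF (5.85) were called. The same covariate changed the sign of Muc4 between genotypes in CONV (0.079) and GF-Colonized (0.0016), of Muc13 between genotypes in GF-Colonized (0.19), and of Muc1 in WT CONV against GF (0.43) and against GF-Colonized (1.29). It also changed the sign of Muc20 in WT CONV against GF-Colonized (2.45), of Muc13 in Ern2-/- CONV against GF (0.38), of Muc4 (0.36) and Muc13 (0.43) in Ern2-/- CONV against GF-Colonized, and of the Muc4 interaction in CONV (0.063). Library totals of WT CONV did not overlap those of WT GF or WT GF-Colonized, so in these comparisons the library total cannot be separated from the group. The Y-linked covariate changed the sign of Muc13 between genotypes in GF (-0.33), in WT GF-Colonized against GF (0.24) and in its colonization interaction (0.039), and of Muc20 in WT CONV against GF-Colonized (0.045), which edgeR (0.053) and the fit of all libraries (0.0025) also turned. With that covariate, WT GF-Colonized against GF rests on WT GF-Colonized replicate 2 alone, and the genotype comparison in GF on Ern2-/- GF replicate 3 alone, against the WT GF libraries. Without the libraries with WT-like Ern2 counts, Muc1 (-1.75) and Muc4 (-2.07) between genotypes in GF, Muc4 in Ern2-/- CONV against GF (2.29) and the Muc4 colonization interaction (1.71) were called, and Muc20 between genotypes in GF (-1.71), the Muc4 interaction in CONV (0.97) and the Muc20 colonization interaction (0.65) changed sign.

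Libraries of the same replicate number did not deviate together throughout. The correlation of a pair ran from -0.28 (replicate 2, between genotypes in GF-Colonized) to 0.63 (replicate 1, between genotypes in GF), and its lowest value was under 0.1 in each comparison. These values cannot decide whether the numbers pair some of the samples, and the main fits used no pairing. The fit with a replicate block called 4 of 44 values, as did the fit without it. The replicate block added Muc13 in WT CONV against GF (-0.88), lost Muc20 in WT GF-Colonized against GF (2.38) and changed the sign of Muc20 between genotypes in GF (-0.083) and of Muc4 in WT CONV against GF-Colonized (-0.082).

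Leaving out 1 library in turn gave the following ranges where a call or a sign changed. Between genotypes they were -2.69 to -1.44 (Muc1), -1.76 to -0.69 (Muc4) and -6.25 to -5.23 (Muc20) in CONV, -0.15 to 0.17 (Muc13) and -0.35 to 0.49 (Muc20) in GF and -0.15 to 0.13 (Muc13) in GF-Colonized. In WT CONV against GF they were -1.89 to -0.95 (Muc1), 0.91 to 1.83 (Muc4), -1.06 to -0.57 (Muc13) and 1.97 to 2.96 (Muc20). In WT GF-Colonized against GF they were -1.33 to -0.62 (Muc1), -0.16 to 0.11 (Muc13) and 2.06 to 2.74 (Muc20), and in WT CONV against GF-Colonized -0.11 to 0.80 (Muc4) and -0.45 to 0.53 (Muc20). In the Ern2-/- libraries they were -3.10 to -1.81 for Muc1 in CONV against GF, 1.09 to 1.91 (Muc4) and -0.22 to 0.11 (Muc13) in GF-Colonized against GF, and -2.71 to -1.29 (Muc1), -1.19 to -0.26 (Muc4) and -0.50 to 0.0064 (Muc13) in CONV against GF-Colonized. Interactions ranged from -1.06 to 0.0066 (Muc4) and -6.34 to -5.32 (Muc20) for CONV, and from -0.11 to 0.96 (Muc1) and -0.19 to 0.13 (Muc13) for colonization. Fits that left 1 library in a group assume that it varies like the other group. Depth limits Muc20 most, whose fitted values against groups at 0 counts are not bounds.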
